A study of Homo sapiens with 24 samples.

Results

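CCL17 (also called TARC) and CCL22 (also called MDC) were followed in L1236, an established Hodgkin lymphoma (HL) cell line of B cell origin, when NF-κB subunits were depleted by RNA interference. The members were the transcript clusters whose only gene symbol in the platform annotation was CCL17 or CCL22. Each gene had 1 such cluster, so 2 of the 33297 clusters on the array were described, out of 19460 with a single symbol. The probes of the array are grouped into such clusters, one for each transcript locus. CCL17 and CCL22 are small secreted CC chemokines. Both bind CCR4, a receptor carried by Th2 and regulatory T cells, and both are products for which the malignant cells of HL are known, since they draw such T cells into the tumour tissue. NF-κB dimers bind κB sites in DNA. The canonical pathway acts mainly through p50/RelA, and the non-canonical pathway through p52/RelB. In other cell types CCL17 is also a known target of IL-4 acting through STAT6.

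All 24 arrays (Affymetrix Human Gene 1.0 ST) held total RNA from L1236 cells passively transfected with Accell siRNA, in 2 experiments without shared arrays. Experiment 1 compared control 1 (non-targeting siRNA) with p50/RelA knockdown (KD), in which cells received siRNA against NFKB1 (1 µM, 3 days) and RELA (500 nM, 2 days). Experiment 2 compared control 2 (non-targeting siRNA) with p52/RelB KD, in which cells received siRNA against NFKB2 (500 nM, 2 days) and RELB (1 µM, 3 days). Each of the 4 arms had 6 arrays, 2 siRNA sequences in each of 3 replicates, and cells were taken 1 day after the return to standard serum. The model is 1 line in culture, and no source used here tells whether separate cultures gave the samples of a replicate. The p-values therefore measure the spread among these arrays, which may be partly technical. Array medians were 6.94 to 6.99 in experiment 1 and 7.39 to 7.51 in experiment 2, so levels were compared within an experiment alone. The control array of sequence 2, replicate 2 in experiment 1 and the p52/RelB KD array of replicate 3 with sequence 2 correlated least with their arms (mean r of 0.993 and 0.980), and values without them are given below. The KD array stood apart from its arm, whereas the next lowest control 1 array was close to the least correlated one, at 0.994.

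The siRNAs that define the arms are shown because every comparison rests on them. The list in the study's supplement names 2 sequences for each target and does not say which was called sequence 1, so they stand in the order listed, 5′ to 3′.
NFKB1, first listed: ccaaaguauaaagauauua
NFKB1, second listed: ggcucauguuuacagcuuu
RELA, first listed: cuuccaaguuccuauagaa
RELA, second listed: ggauugaggagaaacguaa
NFKB2, first listed: ucauugagcagauagucua
NFKB2, second listed: cugucaagaucuguaacua
RELB, first listed: guaggauucggaaaagauu
RELB, second listed: uggagaucaucgacgagua

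The targeted mRNAs were reduced unequally. NFKB1 was at 26.5% and RELA at 38.1% of control in p50/RelA KD. In p52/RelB KD, NFKB2 was at 39.4% and RELB at 82.0% of control, and REL, which encodes c-Rel and was not a target, was at 67.5% (log2 difference -0.57 ± 0.07 (SE, n = 6 per arm), limma adjusted p = 0.000308). Other untargeted subunits differed less. NFKB2 was called lower under p50/RelA KD (-0.19 ± 0.04, adjusted p = 0.0422), a call lost without the least correlated control array, and NFKB1 was called higher under p52/RelB KD (0.15 ± 0.04, adjusted p = 0.0359). Of the listed Hodgkin cell markers, among them TNFRSF8 (CD30) and IRF4, 8 of 8 lay above 6, the limit for low values, in every arm. That limit lies below every array median, so passing it does not tell cell types apart. TRAF1 (arm means 6.52 to 7.16) and NOTCH1 (6.84 to 7.41) lay near or below the medians. Of the T and NK cell markers, 3 of 10 passed it in each arm of experiment 1 and 7 of 10 in experiment 2. Of 9 B cell markers on the array 8 passed it in each arm, and MS4A1 passed it in none. Markers of myeloid and dendritic cells, which also make both chemokines, were above 6 for 4 to 6 of 12 genes per arm. CD163, CD1C, CLEC9A, FCGR3A, FLT3 and LYZ were below it in every arm. Among those above it, arm means ran from 9.17 to 9.40 for LAMP3, from 7.61 to 7.82 for CSF1R and from 7.29 to 7.79 for CD68. LAMP3, a marker of mature dendritic cells, was the only gene of the myeloid and dendritic list called, higher under p52/RelB KD (0.15 ± 0.04, adjusted p = 0.0305). That is 1 of 6 tested, beside 4.04% of all clusters tested, and the part of LAMP3 in the chemokine results was not tested. Of the 8 Hodgkin cell markers, GATA3 and TRAF1 were called lower in p52/RelB KD, beside 6.0% of all clusters tested. None was called in p50/RelA KD, where 2 had an unadjusted p below 0.05 in limma. Over all clusters tested in p50/RelA KD, 0.876% were called lower and 0.263% higher.

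CCL22 fell under both knockdowns and CCL17 under one. In p50/RelA KD, CCL22 fell to 59.5% and CCL17 to 73.7% of control. In p52/RelB KD, CCL22 fell to 55.1% of control, whereas CCL17 stood at 109% and did not pass the test. The CCL17 effect differed between the knockdowns and the CCL22 effect was not shown to differ.

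In experiment 1, CCL22 ranged from 10.25 to 10.71 on the log2 scale over the control 1 arrays (median 10.58) and from 9.66 to 9.97 over the p50/RelA KD arrays (median 9.73). All 6 KD arrays lay below all 6 control arrays, with a gap of 0.28 between the groups. The mean level was 10.51 ± 0.18 (SD, n = 6) in control 1 and 9.76 ± 0.11 (SD, n = 6) in p50/RelA KD. The limma estimate was a difference of -0.75 ± 0.05 (log2, SE; adjusted p = 4.84e-06), the third largest fall among 15989 clusters tested, after NFKB1 and RELA. A cluster was called when its Benjamini-Hochberg adjusted p was below 0.05 and it differed by at least 10%, and 0.876% of the clusters tested were called lower in this comparison. Without the least correlated control array the CCL22 difference was -0.76 (adjusted p = 2.78e-05).

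CCL17 followed the same direction in experiment 1 with a smaller difference. Its level ranged from 8.92 to 9.22 over the control 1 arrays (median 9.04) and from 8.53 to 8.77 over the p50/RelA KD arrays (median 8.59). The groups did not overlap, and the gap between them was 0.15. The log2 difference was -0.44 ± 0.04 (SE; limma adjusted p = 0.000262), ranking as fall number 14 of 15989. It was -0.45 (adjusted p = 0.000492) without the least correlated control array. The call was lost without replicate 1, where the log2 difference was -0.41 (adjusted p = 0.05004), and with the arrays of siRNA sequence 1 (-0.48, adjusted p = 0.0512) or sequence 2 alone (-0.40, adjusted p = 0.585). Few clusters were called in those fits by sequence, 6 of 15939 with sequence 1 and 3 of 15943 with sequence 2.

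In experiment 2, CCL22 ranged from 10.38 to 10.94 over the control 2 arrays (median 10.60) and from 9.54 to 10.07 over the p52/RelB KD arrays (median 9.75). Again all 6 KD arrays were lower than all 6 control arrays, here with a gap of 0.31. The log2 difference was -0.86 ± 0.09 (SE; limma adjusted p = 7.45e-05), ranking as fall number 16 of 17562 clusters tested. Of those clusters 6.0% were called lower and 4.04% higher. Without the KD array that stood apart the log2 difference was -0.84 (adjusted p = 3.18e-05), and with the arrays of siRNA sequence 2 alone it was -1.03 and the call was lost (adjusted p = 0.0529). The sequence 2 fit called 1 of 17545 clusters. REL also fell in this arm, and the part of each subunit in the CCL22 difference was not tested.

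CCL17 did not fall in experiment 2. It ranged from 9.11 to 9.48 over the control 2 arrays (median 9.32) and from 9.25 to 9.59 over the p52/RelB KD arrays (median 9.40). The groups overlapped, and 2 of 6 KD arrays lay above the highest control array while none lay below the lowest. The log2 difference was 0.12 ± 0.05 (SE, n = 6 per arm), with a 95% interval of 0.01 to 0.23 before adjustment and a limma adjusted p of 0.176. Without the array that stood apart it was 0.14 (adjusted p = 0.0512). The unadjusted interval of the main fit holds no decrease, and its upper end is a rise of 0.23 on the log2 scale. Other fits gave intervals that take in a decrease, such as -0.04 to 0.28 without the replicate block and -0.05 to 0.28 without replicate 1. With sequence 2 arrays alone the interval ran from -0.15 to 0.25, and within replicate 3 from -0.20 to 0.42.

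**Figure D1:**
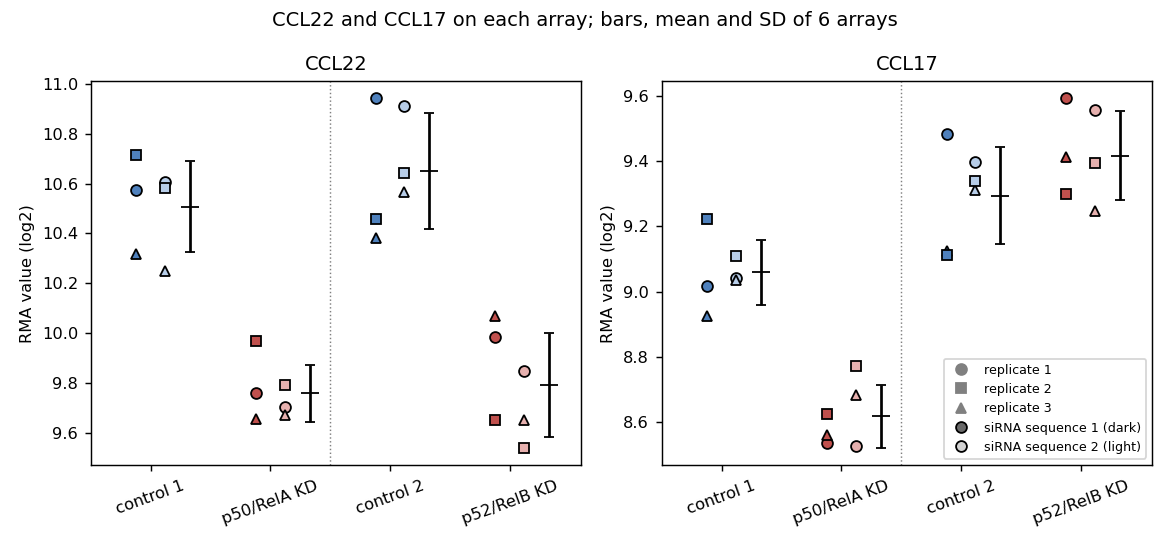
Log2 RMA values of CCL22 (left) and CCL17 (right) on each array of the 4 arms, with marker shape for the replicate, dark fill for siRNA sequence 1, light fill for sequence 2, and mean ± SD (n = 6) drawn beside the points. The KD arrays of CCL22 lie below the controls in both experiments, and those of CCL17 in experiment 1 alone, while in experiment 2 the CCL17 values overlap; the dotted line separates experiments whose levels are not comparable.

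The differences were also read replicate by replicate, since replicates were scanned apart in experiment 1. For CCL22 in p50/RelA KD, KD minus control was -0.86 in replicate 1, -0.77 in replicate 2 and -0.62 in replicate 3. For CCL17 in the same arrays it was -0.50, -0.47 and -0.36. Both genes were lower in 3 of 3 replicates, and in each of them CCL22 fell further than CCL17.

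The replicate differences of CCL22 in p52/RelB KD were -1.01 in replicate 1, -0.95 in replicate 2 and -0.61 in replicate 3. Those of CCL17 were 0.13, 0.12 and 0.11. CCL22 was thus lower and CCL17 slightly higher in 3 of 3 replicates. Replicates 1 and 2 of this experiment shared a scan batch, within which CCL22 differed by -0.98 (limma adjusted p = 5.35e-06) and CCL17 by 0.13 (adjusted p = 0.132). Within the batch of replicate 3, with 2 arrays per arm, CCL22 differed by -0.61 (adjusted p = 0.664) and CCL17 by 0.11 (adjusted p = 0.697).

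**Figure D2:**
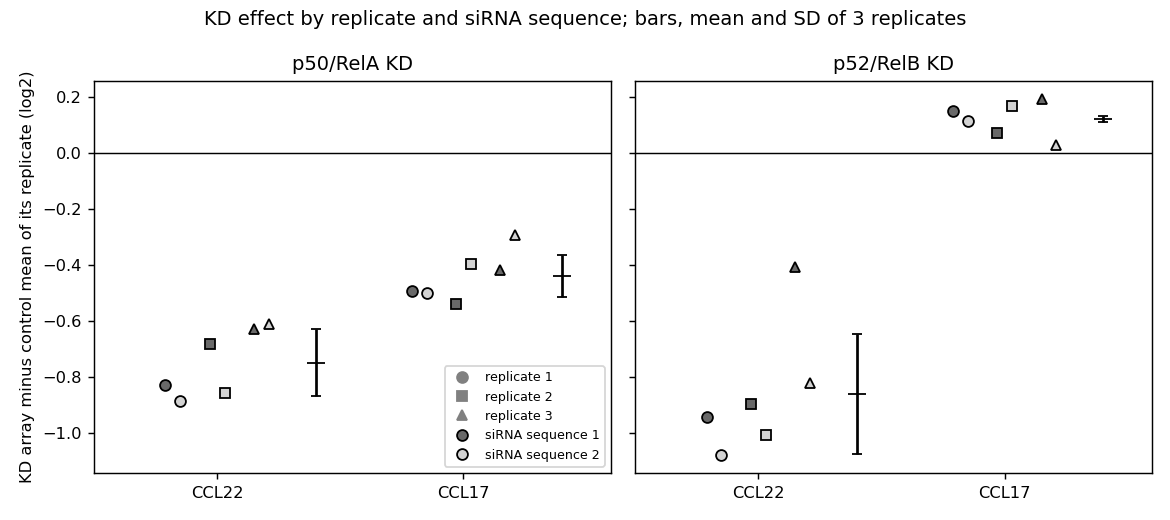
Each KD array minus the mean of the 2 control arrays of its replicate (log2), for CCL22 and CCL17 in p50/RelA KD (left) and p52/RelB KD (right), with marker shape for the replicate, fill for the siRNA sequence, and mean ± SD over 3 replicates drawn beside them. CCL22 lies below 0 on all 12 KD arrays, from -1.08 to -0.41, and CCL17 lies below 0 on the 6 p50/RelA KD arrays and between 0.03 and 0.19 on the 6 p52/RelB KD arrays.

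By siRNA sequence, CCL22 in p50/RelA KD was lower than the control mean of its replicate by -0.71 ± 0.10 (SD, n = 3) for sequence 1 and -0.79 ± 0.15 for sequence 2. CCL17 differed by -0.48 ± 0.06 for sequence 1 and -0.40 ± 0.10 for sequence 2. In p52/RelB KD, CCL22 differed by -0.75 ± 0.30 for sequence 1 and -0.97 ± 0.13 for sequence 2, and CCL17 by 0.14 ± 0.06 and 0.10 ± 0.07. The smallest CCL22 difference on a KD array, -0.41, belonged to sequence 1 in replicate 3 of p52/RelB KD, where 75.5% of the control level was left, against 47.3% to 56.6% on the other 5 arrays of that arm. Set against each other within an arm, sequence 1 minus sequence 2 was 0.22 ± 0.11 (SE, n = 3 per sequence) for CCL22 in p52/RelB KD (95% interval -0.01 to 0.46, limma adjusted p = 0.504) and 0.03 ± 0.07 for CCL17. In p50/RelA KD it was 0.07 ± 0.07 for CCL22 and -0.09 ± 0.06 for CCL17. None of the 8 contrasts, 4 of them between the control siRNAs, passed the test in limma, and the lowest unadjusted p among them was 0.0628.

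The effects of the knockdowns were compared in one limma fit over the 24 arrays. For CCL17 the p52/RelB KD effect minus the p50/RelA KD effect was 0.56 ± 0.07 on the log2 scale (SE, adjusted p = 2.50e-05), with a 95% interval of 0.42 to 0.70. With sequence 2 arrays alone it was 0.45 and was not called (adjusted p = 0.395), and with sequence 1 arrays alone it was 0.67 and was called (adjusted p = 0.00329). In this comparison 2.02% of 15962 clusters were called higher and 2.59% lower. For CCL22 the same difference was -0.11 ± 0.10 (adjusted p = 0.663), with a 95% interval of -0.32 to 0.10. The interval leaves room for a difference of either sign, so equal effects on CCL22 are not shown. The targets were reduced unequally, and the size of the effects was not scaled to the remaining subunit mRNA.

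CCL22 and CCL17 were also set against each other on the same array. The probes of the genes differ, so the log2 difference CCL22 minus CCL17 says nothing of which mRNA is more abundant, but its change between arms does not depend on how the array as a whole was scaled. It was 1.45 ± 0.13 (SD, n = 6) in control 1 and 1.14 ± 0.13 in p50/RelA KD, where 4 of 6 KD arrays lay below every control array. In experiment 2 it was 1.36 ± 0.11 in control 2 and 0.37 ± 0.17 in p52/RelB KD, and all 6 KD arrays lay below every control array. The change was -0.31 in p50/RelA KD and -0.98 in p52/RelB KD, each with an exact two-sided permutation p of 0.00926 over 216 arrangements within replicates, which is the smallest p this design allows. The CCL22 signal thus fell relative to that of CCL17 in both experiments, to a ratio of 50.6% of control in p52/RelB KD and 80.8% in p50/RelA KD. In p52/RelB KD CCL17 itself did not fall and stood at 109% of control. RMA values understate large differences, and whether they do so equally for the 2 clusters was not tested.

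Within an arm the genes were compared array by array, with 12 correlations in the family, 4 between the chemokines and 8 with the targeted genes. In control 2, CCL17 and CCL22 gave Pearson's r = 0.933 (exact permutation p = 0.0167, adjusted p = 0.200, n = 6) and Spearman's rho = 0.943 (exact p = 0.0167, adjusted p = 0.200). Without the 2 arrays farthest from the CCL17 median r was 0.913, and on residuals after the replicate means it was 0.980. In control 1, r was 0.718 (exact p = 0.110, adjusted p = 0.30), rho was 0.771 (exact p = 0.103, adjusted p = 0.411), and r was 0.276 without the 2 farthest arrays. In p52/RelB KD, r was 0.602 (exact p = 0.228, adjusted p = 0.421) and rho 0.60 (exact p = 0.242, adjusted p = 0.580). In p50/RelA KD, r was 0.210 (exact p = 0.690, adjusted p = 0.812), rho was 0.257 (exact p = 0.658, adjusted p = 0.779), and r changed sign on residuals after the replicate means, to -0.653. None of the correlations passed after adjustment.

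**Figure D3:**
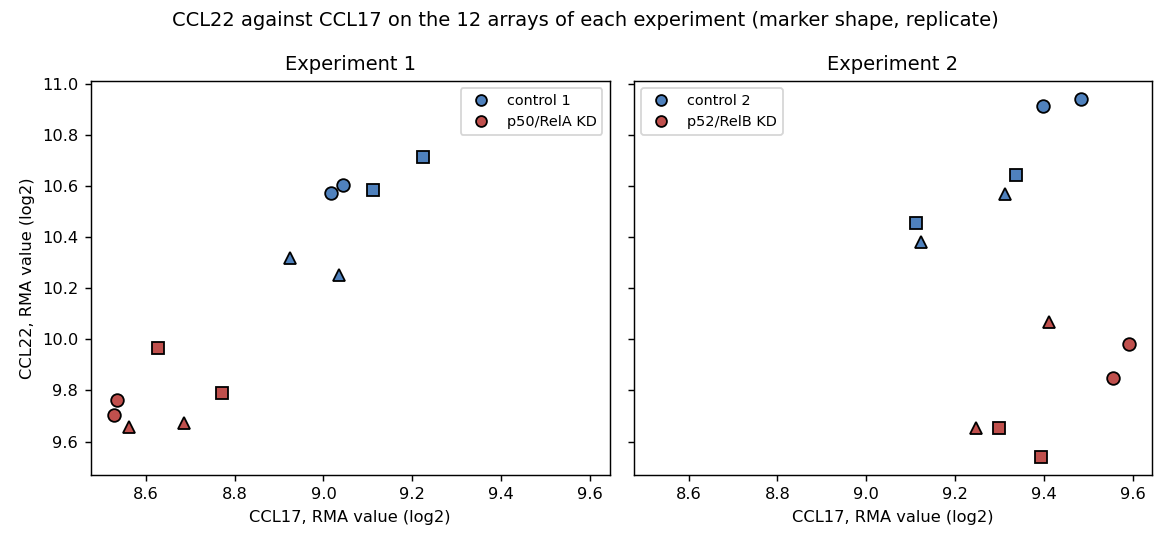
CCL22 against CCL17 (log2 RMA values) on the 12 arrays of experiment 1 (left) and experiment 2 (right), blue for control and red for KD, with marker shape for the replicate. In experiment 1 the KD arrays lie lower on both axes, whereas in experiment 2 they lie lower for CCL22 only, at CCL17 values that overlap with the controls.

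The remaining target mRNA did not track the chemokines in a way that passed the test. RELA and CCL17 in p50/RelA KD gave r = 0.805 (exact permutation p = 0.0583, adjusted p = 0.272, n = 6) and rho = 0.543 (exact p = 0.297, adjusted p = 0.594), and r was 0.631 without the 2 arrays farthest from the RELA median. RELA and CCL22 gave r = 0.0997 (exact p = 0.832, adjusted p = 0.832) and rho = 0.257 (exact p = 0.658, adjusted p = 0.779). RELB and CCL17 in p52/RelB KD gave r = -0.759 (exact p = 0.0681, adjusted p = 0.272) and rho = -0.771 (exact p = 0.103, adjusted p = 0.411), and r was -0.133 without the 2 arrays farthest from the RELB median. NFKB2 and CCL22 gave r = -0.565 (exact p = 0.246, adjusted p = 0.421) and rho = -0.60 (exact p = 0.242, adjusted p = 0.580). The other 4 relations had r between -0.472 and 0.719. On residuals after the replicate means, given as values with no test, r in p50/RelA KD was 0.985 for RELA with CCL17 and 0.992 for NFKB1 with CCL17. Each rests on 3 pairs of arrays, 1 pair per replicate. Every other relation with a target had a negative r on residuals, from -0.769 for NFKB2 with CCL22 to -0.519 for RELA with CCL22. For NFKB1 with CCL17, r was -0.850 without the 2 arrays farthest from the NFKB1 median.

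CCL22 and CCL17 are close neighbours in the RefSeq gene order, with CX3CL1, the gene of a membrane-bound chemokine, as the single protein-coding gene between them. The difference of CX3CL1 was 0.02 ± 0.06 in p50/RelA KD (limma adjusted p = 0.959) and 0.01 ± 0.06 in p52/RelB KD (adjusted p = 0.921), so CX3CL1 was not called in either. Of the 21 protein-coding neighbours, CX3CL1 and 10 to each side of the chemokine pair, 19 had a cluster. Of these, 1 of 18 tested in p50/RelA KD was called, which was higher (0.263% of all clusters tested were called higher), and in p52/RelB KD 1 of 19 was called, which was lower, beside 6.0% of all clusters tested. The gene called higher was CPNE2, which encodes a calcium-dependent phospholipid-binding protein (0.20 ± 0.04, adjusted p = 0.0468). The gene called lower was HERPUD1, which acts in endoplasmic reticulum protein quality control (-0.32 ± 0.05, adjusted p = 0.00134). The neighbours' differences had a median of -0.01 in p50/RelA KD and 0.03 in p52/RelB KD, beside 0.00 and 0.02 over all clusters tested.

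**Figure D4:**
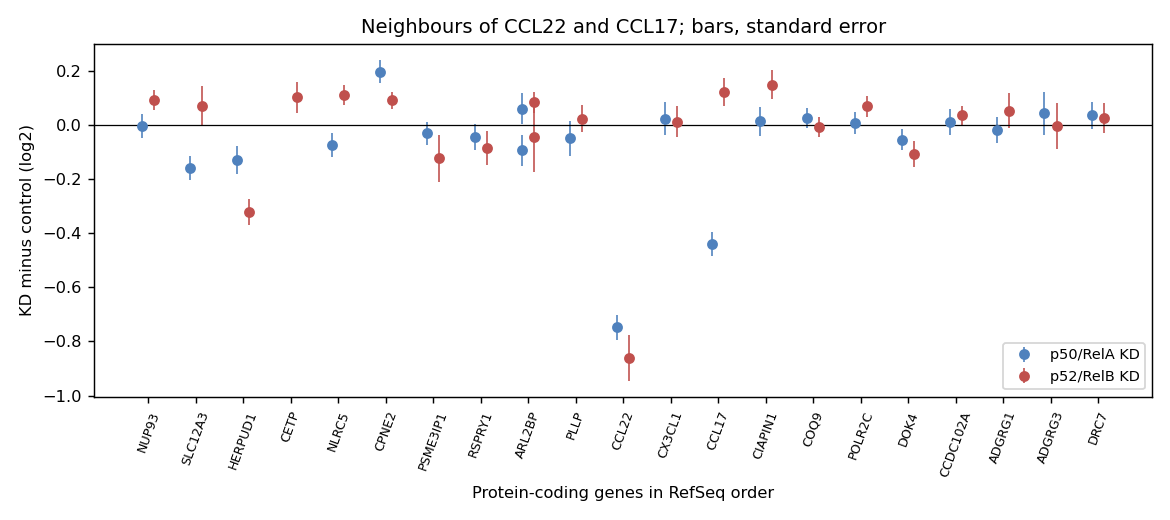
KD minus control (log2) with its standard error for CCL22, CCL17 and their protein-coding neighbours, placed in RefSeq order and not to scale, blue for p50/RelA KD and red for p52/RelB KD. CCL22 is low in both and CCL17 in p50/RelA KD, while the neighbours lie between -0.32 and 0.20; ARL2BP has 2 clusters.

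Because the siRNAs were directed against DNA-binding subunits, the start of CCL22 was searched for κB letters. In the RefSeq promoter table (GRCh38.p14), the 250 bases upstream of the CCL22 start on the plus strand held the κB decamer consensus in 2 overlapping frames. They covered 11 bases, 186 to 176 bases upstream of the start. The start used by that table lies inside the longer RefSeq gene record. The window at chr16:57358588-57358617 is shown with those bases in capitals.
CCL22, plus strand: agagttgagGGGGGGTCCCCtctgagtggt
The same consensus, searched on both strands over the same upstream length, was present in 3498 of 35116 promoters of the table (9.96%). A STAT6 motif (TTCNNNNGAA, which reads the same on both strands) was not among the 250 bases of CCL22, and 5.38% of the promoters held it. CCL17 had no entry among these promoters, so neither motif was looked for at CCL17 and the 2 genes cannot be compared. The letters are a description of the sequence, and no binding was measured on these arrays.

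Counting the members, 3 of 12 CC chemokines tested were called in p50/RelA KD, all lower, and in p52/RelB KD 1 of 13 was called lower and 3 higher. Over all clusters tested, 0.876% were called lower in p50/RelA KD, and 6.0% lower and 4.04% higher in p52/RelB KD. The median difference of the CC chemokines was -0.05 in p50/RelA KD and 0.05 in p52/RelB KD. CCL5 (RANTES), which attracts T cells and monocytes, was called lower under p50/RelA KD (-0.31 ± 0.04, limma adjusted p = 0.00393) and higher under p52/RelB KD (0.37 ± 0.04, adjusted p = 0.000186). CCL3, an inflammatory chemokine, was called higher under p52/RelB KD (0.58 ± 0.08, adjusted p = 0.000467), and its difference under p50/RelA KD was -0.32 ± 0.08 (adjusted p = 0.0783). CCL2, a monocyte attractant, was called higher there too (0.15 ± 0.04, adjusted p = 0.0441). The difference between the knockdowns was called higher for CCL2, CCL3, CCL5 and CCL17 among the 12 tested, beside 2.02% of all clusters tested. CCL22 was the only one of the 13 called lower in p52/RelB KD.

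The CXC, CX3C and XC chemokines gave 0 calls among 10 tested in p50/RelA KD by limma. Of them, 3 had an unadjusted p below 0.05. Over all clusters tested in p50/RelA KD, 0.876% were called lower and 0.263% higher. In p52/RelB KD 3 of 15 were called lower, beside 6.0% of all clusters tested. These were CXCL10, an interferon-induced attractant of CXCR3-bearing T cells (-0.32 ± 0.06, adjusted p = 0.00503), CXCL13, the B cell attractant of follicles (-0.26 ± 0.05, adjusted p = 0.00891), and CXCL16, the ligand of CXCR6 (-0.33 ± 0.06, adjusted p = 0.00363). The difference between the knockdowns was called for 0 of the 10 tested in both by limma, with 3 at an unadjusted p below 0.05.

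**Figure D5:**
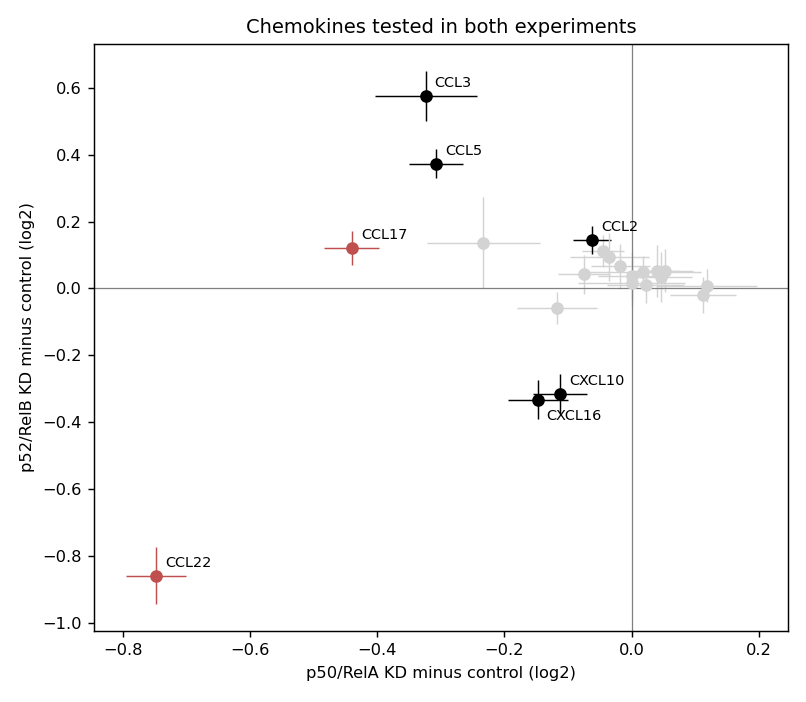
Difference between KD and control (log2, bars for the standard error) of every chemokine cluster tested in both experiments, p50/RelA KD on the horizontal axis and p52/RelB KD on the vertical axis, with CCL17 and CCL22 in red, the other called genes in black and genes called in neither KD in grey. Of the called genes, CCL22 lies farthest to the lower left (-0.75 and -0.86), with CXCL10 and CXCL16 on the same side nearer the origin, and CCL17, CCL3, CCL5 and CCL2 lie at the upper left.

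Of the chemokine receptors, 2 of 10 were called in p50/RelA KD, both lower, and 3 of 11 lower and 2 higher in p52/RelB KD. Over all clusters tested the shares were 0.876% lower in p50/RelA KD, and 6.0% lower and 4.04% higher in p52/RelB KD. CCR4, the receptor shared by CCL17 and CCL22, fell by 0.44 ± 0.08 in p52/RelB KD (limma adjusted p = 0.00476). Its difference was -0.09 ± 0.06 in p50/RelA KD (adjusted p = 0.750), and the difference between the knockdowns was -0.36 ± 0.11 (adjusted p = 0.0674). CXCR5, the receptor of CXCL13, fell by 0.38 ± 0.04 in p50/RelA KD and by 0.51 ± 0.06 in p52/RelB KD. ACKR1, a scavenger that also binds CCL17, was called lower under p50/RelA KD (-0.31 ± 0.06, adjusted p = 0.0201), with 0.05 ± 0.07 under p52/RelB KD. CXCR4, the receptor of CXCL12, fell by 0.40 ± 0.07 in p52/RelB KD, while CXCR3 rose by 0.37 ± 0.07 and ACKR2, a scavenger of inflammatory CC chemokines including CCL17 and CCL22, by 0.18 ± 0.05.

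The IL-4 and STAT6 axis, through which CCL17 is induced in other cells, was examined as a list of 24 genes. In p50/RelA KD 2 of 18 tested were called, both lower, and in p52/RelB KD 3 were called lower and 5 higher, beside the same shares of all clusters (0.876% lower, and 6.0% lower and 4.04% higher). STAT6 was not called in either, at -0.00 ± 0.04 in p50/RelA KD (limma adjusted p = 0.989) and 0.08 ± 0.04 in p52/RelB KD (adjusted p = 0.259). IL13, a cytokine that HL cells can produce and that signals through STAT6, was called lower under p50/RelA KD (-0.35 ± 0.05, adjusted p = 0.00837), and its difference under p52/RelB KD was 0.05 ± 0.12 (adjusted p = 0.827). The difference between the knockdowns was 0.40 ± 0.14 for IL13 (adjusted p = 0.118), so a different effect on it was not shown.

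The members called higher in p52/RelB KD were the receptor chain IL4R (0.24 ± 0.04), the kinases JAK1 (0.19 ± 0.04), JAK2 (0.20 ± 0.06) and TYK2 (0.25 ± 0.04), and FCER2 (CD23), an IL-4-inducible surface receptor of B cells (0.48 ± 0.04, limma adjusted p = 9.73e-06). The common γ chain gene IL2RG (-0.19 ± 0.04), STAT5A (-0.46 ± 0.05) and STAT5B (-0.18 ± 0.04) were called lower. STAT5A, a cytokine-activated transcription factor, was called lower under p50/RelA KD too (-0.29 ± 0.05, adjusted p = 0.0146).

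Of 22 products with which HL cells attract or modulate T cells, CCL17 and CCL22 aside, 4 of 14 tested were called in p50/RelA KD, all lower, and 5 of 16 were called lower in p52/RelB KD and 1 higher. The shares of all clusters tested were 0.876% lower in p50/RelA KD, and 6.0% lower and 4.04% higher in p52/RelB KD. EBI3, a subunit of IL-27 and IL-35, was called lower under p50/RelA KD (-0.48 ± 0.04, limma adjusted p = 2.37e-05) and p52/RelB KD (-0.21 ± 0.06, adjusted p = 0.0349). LTA (lymphotoxin α), measured by 3 clusters, fell by 0.19 to 0.20 in p50/RelA KD and by 0.44 to 0.49 in p52/RelB KD. TNF, whose 3 clusters have the same values, fell by 0.26 ± 0.06 and 0.31 ± 0.05. IL6, an inflammatory cytokine, was called lower under p50/RelA KD (-0.36 ± 0.05, adjusted p = 0.00629), with -0.02 ± 0.06 under p52/RelB KD. The T cell suppressors TGFB1 (-0.15 ± 0.04) and LGALS1 (galectin-1, -0.16 ± 0.05) were called lower in p52/RelB KD, and CSF1, the macrophage growth factor, was called higher (0.35 ± 0.04). Without the least correlated control array of experiment 1 the TNF call was lost. Without the p52/RelB KD array that stood apart the TGFB1 call was lost, while CD70 of this list was then called lower and CCL1 higher.

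A list of 20 classic NF-κB target genes was read beside the chemokines, and 19 of them were tested. In p50/RelA KD 9 were called lower and 0 higher, with a median difference of -0.21. In p52/RelB KD 9 were called lower and 1 higher, with a median of -0.15, the one called higher being BCL2A1, an anti-apoptotic BCL2 relative (0.30 ± 0.04, limma adjusted p = 0.000701). Without the least correlated control array of experiment 1, CD83 was called lower too, which made 10 lower. Without the p52/RelB KD array that stood apart, FAS was called higher too, which made 2 higher. The medians over all clusters tested were 0.00 and 0.02. The shares of all clusters called were 0.876% lower and 0.263% higher in p50/RelA KD, and 6.0% lower and 4.04% higher in p52/RelB KD. The list is a description of these arrays, since its members were chosen with earlier results known.

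Last, the genes whose levels followed each chemokine most closely were found by Pearson's r over the 24 arrays, after the mean of its own experiment was taken from each value, among 14646 other single-symbol clusters tested in both experiments. The KD effects are part of this measure, so r describes likeness and carries no test. The 5 genes most like CCL22 were HEY1, a Notch effector (r = 0.917), STAT5A (r = 0.900), TRIP10, a CDC42-interacting adaptor (r = 0.897), PDGFRL, a receptor-like protein (r = 0.896), and FLVCR2, a membrane transporter (r = 0.894). HEY1 was called lower under p50/RelA KD (-0.39, limma adjusted p = 0.000217) and p52/RelB KD (-0.69, adjusted p = 3.85e-05).

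The 5 genes most like CCL17 were APOD, which encodes apolipoprotein D (r = 0.872), TTYH2, a membrane protein gene (r = 0.855), NFKBIA, which encodes the NF-κB inhibitor IκBα (r = 0.839), RELA (r = 0.837) and NFKB1 (r = 0.832). APOD was called lower under p50/RelA KD (-0.38, limma adjusted p = 0.00103) and higher under p52/RelB KD (0.23, adjusted p = 0.00210). NFKBIA was called lower under p50/RelA KD (-0.40, adjusted p = 8.21e-05), with 0.04 under p52/RelB KD (adjusted p = 0.613). CCL17 and CCL22 correlated with each other at r = 0.483. CCL17 was number 1181 in likeness to CCL22, and CCL22 was number 353 in likeness to CCL17. In bulk RNA, fewer cells making a chemokine and less of its mRNA per cell cannot be told apart.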

How the data were processed

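Per the labels, total RNA of L1236 cells was hybridised to Affymetrix Human Gene 1.0 ST arrays. The deposited log2 values are from RMA (background correction, quantile normalization and probe summary; version not given in the sources used here), which carry no detection call and understate large differences. Precision is limited by the number of arrays. Groups, siRNA sequences and replicates were taken from the sample titles.

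Clusters were named from the platform annotation, with symbols updated through the NCBI gene table of GRCh38.p14, used for names and gene order. Each KD was compared with the control of its own experiment by limma 3.58.1 (R 4.3.3) and a block for replicate, in place of the methods' t-test after adjustment for covariates that are not named. Tested were the clusters with any symbol, leaving out those whose value was under 6 on at least 50% of an experiment's 12 arrays; the alternative without this filter took in clusters with no symbol too. A call needed a Benjamini-Hochberg adjusted p below 0.05 and a difference of at least 10%. Scan batches were those of the labels' scan dates. Replicate deviations of the control and KD means had correlations over the clusters of 0.448, 0.193 and 0.252 (experiment 1) and 0.576, 0.272 and 0.380 (experiment 2), so the numbers were taken to pair the arrays. Permutation tests and correlations were exact, two-sided and run in Python 3.11.15. The fits were tested on simulated data. No 2 arrays held identical values.

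Named were the members, the targets and REL, genes of the chemokine, receptor, IL-4 and STAT6, and T cell product lists called in either KD, CCR4, STAT6, called neighbours, CX3CL1, and the 5 genes most like each member. Marker and NF-κB target genes named beside these, and genes called once an array was left out, were chosen after their values were seen. The members and lists were chosen with earlier results of these data known. A gene with several clusters counted once. Alternatives tried were the block, normalization, filter, test, array weights, sequences, and each replicate or array left out. The list counts without the least correlated control array or the KD array that stood apart were added after seeing the data.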

Additional observations from a re-analysis of the deposited data

Results flagged for a closer look

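The CCL17 effect differed between the knockdowns by a test of the difference itself. The p52/RelB KD effect minus the p50/RelA KD effect was 0.56 on the log2 scale, from a limma fit over the 24 arrays (adjusted p = 2.50e-05), with CCL17 lower in 3 of 3 replicates of p50/RelA KD and not lower in 3 of 3 replicates of p52/RelB KD. No array of CCL17, CCL22 or their difference lay far enough from the 5 others of its arm to be singled out, in 18 sets of 6 values examined.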

How the results depend on the processing

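The fall of CCL22 in p50/RelA KD kept its direction and its call under all 27 alternatives, from -0.81 to -0.69. CCL17 in p50/RelA KD was not called with the arrays of either siRNA sequence alone. With sequence 1 arrays alone it was -0.48 (adjusted p = 0.0512), the CCL22 difference between the knockdowns turned to 0.048, and CCL22 in p52/RelB KD (-0.69, adjusted p = 0.00741) and the CCL17 difference between the knockdowns (0.67, adjusted p = 0.00329) kept their calls. With sequence 2 arrays alone, CCL17 in p50/RelA KD was -0.40 (adjusted p = 0.585), CCL22 in p52/RelB KD was -1.03 (adjusted p = 0.0529) and the CCL17 difference between the knockdowns was 0.45 (adjusted p = 0.395). These fits had 3 arrays per arm. With sequence 1 arrays alone 6, 1284 and 394 clusters were called in p50/RelA KD, p52/RelB KD and the difference. With sequence 2 arrays alone it was 3, 1 and 3, so almost no cluster passed. The sequence number of a control siRNA has no relation to that of a KD siRNA. Leaving out replicates or arrays, CCL17 in p50/RelA KD ranged from -0.48 to -0.41, with its call lost without replicate 1, and the change of CCL22 minus CCL17 from -0.36 to -0.25 in p50/RelA KD and from -1.11 to -0.90 in p52/RelB KD, where 2 replicates allow no p below 0.0556. CCL17 in p52/RelB KD was not called under any of 27 alternatives (0.05 to 0.19).

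Without the replicate block, which drops the pairing of the arrays, the differences are the same by construction (CCL22 -0.75 and -0.86, CCL17 -0.44 and 0.12) and no call on the chemokines changed, but the clusters called went from 182 to 68 in p50/RelA KD, from 1764 to 962 in p52/RelB KD and from 736 to 283 for the difference. Over all alternatives these counts ranged from 3 to 370, from 1 to 2526 and from 3 to 1269. With the 2 sequences averaged within a replicate, they were 38, 709 and 158. In that limma fit CCL22 had an adjusted p of 0.00135 in p50/RelA KD and 0.00660 in p52/RelB KD. The adjusted p of CCL17 was 0.0124 and 0.223, and 0.00612 for its difference between the knockdowns. The methods' t-test on deposited values called 34 clusters in p50/RelA KD, and 299 on values adjusted for replicate. Without that adjustment it called 0 chemokine receptors and 0 genes of the IL-4 and STAT6 list there. ACKR1, CXCR5, IL13 and STAT5A, called lower by limma, were thus not called. It called 1 T cell product and 3 classic NF-κB targets there, against 4 and 9 by limma. In p52/RelB KD its counts for these lists were 2, 5, 3 and 8. Sequence contrasts of CCL17 changed sign when a replicate was left out, from -0.068 to 0.044 in control 1 and from -0.030 to 0.10 in p52/RelB KD. Correlations changed sign as well. On residuals after replicate means, r was -0.653 for CCL17 with CCL22 and -0.519 for RELA with CCL22 in p50/RelA KD, and -0.556 for NFKB2 with CCL17 in p52/RelB KD. Without the 2 farthest arrays it was -0.850 for NFKB1 with CCL17, -0.586 for RELA with CCL22, -0.296 for NFKB2 with CCL17 and 0.0451 for RELB with CCL22. The cause of these changes was not tested.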
